A study of Mus musculus with 12 samples.

Results

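The regulatory IRGM GTPases of the mouse are 3 genes, Irgm1, Irgm2 and Igtp, the last also known as Irgm3. They were taken as the rows of the deposited count table whose Ensembl identifier, with its version dropped, belongs to one of these symbols. All 3 were found among the 53379 genes of the table, and all 3 were among the 14299 genes that passed the filter on low counts. Messenger RNA had been sequenced from an Eµ-myc B cell lymphoma line on the C57BL/6 background, a model in which an immunoglobulin heavy chain enhancer drives the Myc transgene. The 12 samples formed 4 groups of 3: cells left without stimulation, and cells exposed to interferon-γ (IFN-γ; the recombinant mouse protein, 5 ng/mL) for 1 h, 6 h and 24 h. A neutralising antibody to IFN-γ, clone XMG1.2 at 50 µg/mL, ended the shorter exposures, and the study design puts harvest at 24 h post stimulation. The 1 h and 6 h groups therefore show what was left at harvest after a short exposure, not the response at 1 h or 6 h. The labels do not say whether the unstimulated or the 24 h samples also received antibody, nor when the unstimulated samples were harvested. They name a single line, so every value describes that line alone.

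Immunity-related GTPases (IRGs) are cytosolic GTP-binding proteins that mouse cells make under interferon and that attack the vacuoles in which intracellular pathogens live. Effector IRGs such as Iigp1, Tgtp1, Tgtp2 and Ifi47 load onto the pathogen's vacuole, whereas the IRGM proteins sit on the cell's own membranes and hold the effectors in their inactive, GDP-bound state. In the mouse, Irgm1 is found at the Golgi apparatus, mitochondria and lysosomes and is needed for resistance to mycobacteria, Irgm2 restrains the caspase-11 inflammasome, and Igtp is found at the endoplasmic reticulum and on lipid droplets and is needed for resistance to Toxoplasma.

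The 3 genes lie on chromosome 11 in GENCODE M21 (GRCm38, the mm10 assembly). Irgm1 (ENSMUSG00000046879.7) spans 48861968 to 48871683 on the minus strand. Igtp (ENSMUSG00000078853.8) spans 58199556 to 58207591 and Irgm2 (ENSMUSG00000069874.7) spans 58199618 to 58222782, both on the plus strand. The Irgm2 model runs over Igtp because 1 of its 3 annotated transcripts begins in the Igtp 5′ region. The models share 162 exonic bases, which is 4.4% of the Irgm2 exons and 8.0% of the Igtp exons. Over aligned coding bases Irgm2 and Igtp were 73.2% identical, Irgm1 and Igtp 68.3%, and Irgm1 and Irgm2 67.0%. Of all windows of 125 bases, the read length, in annotated transcripts, Irgm1 shared 0 with transcripts of other genes, Irgm2 shared 1.62% and Igtp shared 2.76%, in each case with the other gene of the Irgm2 and Igtp pair. Of windows of 50 bases, Irgm1 shared 0.38%, Irgm2 7.83% and Igtp 11.77%, for Igtp with Irgm2 alone. How reads that fall on both models were counted is not given in the sources used here. That part of the Irgm2 and Igtp counts is thus uncertain, and its size is not known.

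Promoters are shown because all 3 genes rose after 24 h (values follow). Each window holds 250 bases before to 50 bases after the RefSeq start (GRCm38.p6) and reads 5′ to 3′ on the gene's own strand. Promoters that respond to IFN-γ often hold a gamma-activated site, with the letters TTCNNNGAA, or an interferon-stimulated response element bound by IRF proteins, searched for here as GAAA, any 2 bases, GAAA. Capitals mark matches to these letters on either strand. The windows are chr11:48871371-48871670 (minus strand) for Irgm1, chr11:58214727-58215026 (plus strand) for Irgm2 and chr11:58199306-58199605 (plus strand) for Igtp.
Irgm1: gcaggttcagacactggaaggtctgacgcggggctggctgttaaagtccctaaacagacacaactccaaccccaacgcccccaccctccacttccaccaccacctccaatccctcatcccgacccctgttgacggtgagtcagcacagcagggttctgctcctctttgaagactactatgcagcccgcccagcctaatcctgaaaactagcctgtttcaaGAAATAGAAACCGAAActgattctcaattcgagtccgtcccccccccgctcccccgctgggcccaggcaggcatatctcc
Irgm2: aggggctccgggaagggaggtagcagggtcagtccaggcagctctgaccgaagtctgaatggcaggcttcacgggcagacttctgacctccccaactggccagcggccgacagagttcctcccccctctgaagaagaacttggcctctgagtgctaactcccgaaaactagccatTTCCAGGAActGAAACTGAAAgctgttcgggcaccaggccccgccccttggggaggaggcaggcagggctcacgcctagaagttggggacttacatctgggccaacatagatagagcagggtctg
Igtp: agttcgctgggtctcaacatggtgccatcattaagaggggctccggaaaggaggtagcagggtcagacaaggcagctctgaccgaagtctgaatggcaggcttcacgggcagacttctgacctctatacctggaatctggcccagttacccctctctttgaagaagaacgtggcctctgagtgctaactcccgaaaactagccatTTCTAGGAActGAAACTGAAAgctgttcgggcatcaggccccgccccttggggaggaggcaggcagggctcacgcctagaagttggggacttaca
With positions counted from 0 at the first transcribed base, Igtp held TTCTAGGAA at -45 to -37 and GAAACTGAAA at -34 to -25. Irgm2 held the same arrangement, TTCCAGGAA at -75 to -67 and GAAACTGAAA at -64 to -55. Irgm1 held overlapping matches to the IRF motif, GAAATAGAAA at -30 to -21 and GAAACCGAAA at -24 to -15, and its window has no TTCNNNGAA. TTCNNNGAA reads the same on both strands. Of the 32851 windows of 300 bases in the RefSeq table, 8.3% held TTCNNNGAA, 3.44% held the IRF motif and 0.454% held both. Of 8 other IRG genes with a window in the table, 3 held TTCNNNGAA, 4 held the IRF motif and 3 held both. The Irgm2 and Igtp windows were 92.1% identical over aligned bases, with an unbroken identical run of 61 bases. Irgm1 was 68.0% identical to Irgm2 and 63.7% to Igtp, with a longest run of 11 bases in each case. These matches are descriptions of the sequence and show no binding.

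Library totals ran from 49440358 to 67096610 counts. The first principal component separated the 24 h libraries from the other 9, and the second set IFNg_6h replicate 3 apart from the other 11. All 9 B cell markers were tested, and their summed level was 5410 to 5470 CPM (TMM-scaled CPM, that is, counts relative to library size) in 24 h libraries and 5620 to 5750 CPM in unstimulated libraries. It was 5590 to 5640 CPM after 1 h and 5530 to 5710 CPM after 6 h, so the 24 h libraries lay lowest. The part of this shift in the results was not tested. The 7 myeloid markers summed to 5.31 to 6.17 CPM in 24 h libraries and to 5.74 to 7.01 CPM in unstimulated libraries, with Lyz2, Csf1r, Adgre1, Cd14 and S100a8 each at or below 0.284 CPM in every library. The other 2 were detected, Cd68 at 3.69 to 5.11 CPM and Itgam at 0.996 to 2.71 CPM over the 12 libraries. The 8 T and NK cell markers summed to 0.758 to 1.32 CPM in 24 h libraries and to 0.721 to 1.14 CPM in unstimulated libraries, and Cd4, Cd8a, Nkg7 and Ncr1 were at 0 in all libraries. Cd3g stood at 0.444 to 1.13 CPM, and Cd3e, Cd3d and Klrb1c at or below 0.241 CPM. In bulk RNA fewer cells that carry a transcript and less of it per cell cannot be told apart.

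After exposure for the whole 24 h all 3 genes rose, and by size of rise they ranked 34 to 44 of the 14299 genes tested. Irgm1 stood at 234.3, 239.8 and 231.2 CPM in the 24 h libraries, against 7.26, 7.47 and 8.85 CPM in unstimulated libraries. The groups were far apart, and the 24 h values lay close together (coefficient of variation 1.85%). The level was 29.8-fold higher (95% interval 27.0 to 33.0; log2 fold change 4.90, SE 0.07), with an edgeR adjusted p of 1.25e-28. Irgm1 ranked 44 by size of rise and 6 by p-value.

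Irgm2 stood at 129.6, 139.6 and 138.9 CPM in the 24 h libraries, against 2.48, 2.48 and 2.75 CPM in unstimulated libraries. The level was 52.8-fold higher (interval 45.3 to 61.4; log2 fold change 5.72, SE 0.11; edgeR adjusted p = 8.68e-22), and the rise ranked 36. Igtp stood at 185.8, 186.7 and 192.9 CPM in the 24 h libraries, against 3.36, 3.19 and 2.39 CPM in unstimulated libraries. The level was 63.5-fold higher (interval 55.1 to 73.2; log2 fold change 5.99, SE 0.10; edgeR adjusted p = 1.61e-22), and the rise ranked 34. For neither gene did the groups overlap. All 3 members were called higher (edgeR adjusted p under 0.05), where 10.3% of all genes tested were called higher in the same comparison.

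**Figure D1:**
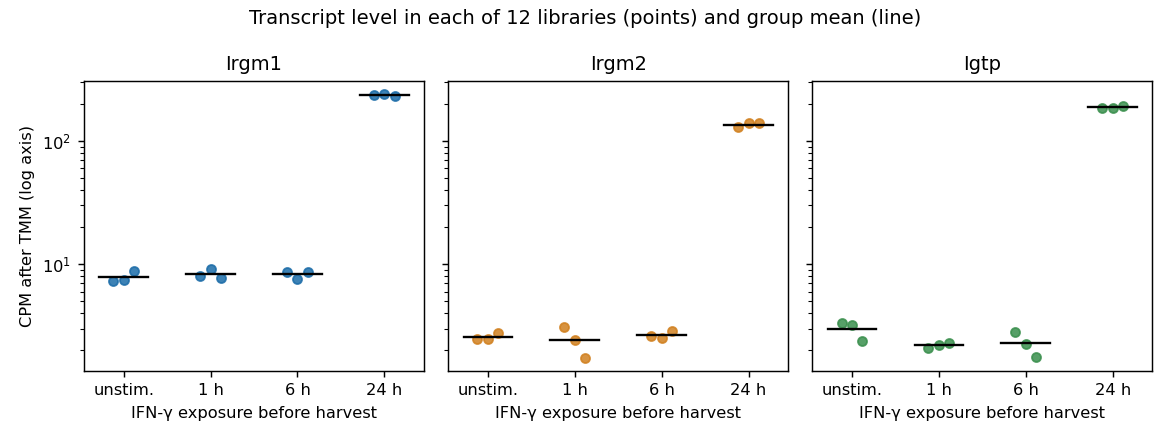
CPM after TMM scaling (log axis) of Irgm1, Irgm2 and Igtp in each library, with 3 libraries per exposure as points and the group mean as a line. The 24 h libraries sit between 129.6 and 239.8 CPM, and the other 9 libraries of each gene lie below 10 CPM, with unstimulated, 1 h and 6 h values close together.

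At harvest after the blocked exposures, the levels were near those of unstimulated cells. Irgm1 stood at 7.96, 9.08 and 7.77 CPM in the 1 h libraries and at 8.71, 7.62 and 8.69 CPM in the 6 h libraries, against the 7.26 to 8.85 CPM of unstimulated libraries. The 3 groups overlap. The log2 fold change after 1 h was 0.07 with a 95% interval of -0.09 to 0.23 (edgeR adjusted p = 0.835), and after 6 h it was 0.08 with an interval of -0.08 to 0.24 (adjusted p = 0.709). The intervals leave room for a level up to 1.17-fold and 1.18-fold that of unstimulated cells.

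Irgm2 stood at 3.09, 2.42 and 1.75 CPM in the 1 h libraries and at 2.61, 2.51 and 2.88 CPM in the 6 h libraries, and these ranges overlap the unstimulated one. The 1 h libraries were the most scattered, with a coefficient of variation of 27.8% against 6.04% in unstimulated libraries. The log2 fold change was -0.10 after 1 h (interval -0.38 to 0.19, edgeR adjusted p = 0.879) and 0.05 after 6 h (interval -0.24 to 0.33, adjusted p = 0.924).

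Igtp stood at 2.07, 2.22 and 2.30 CPM in the 1 h libraries, each below the 2.39 CPM of the lowest unstimulated library. In the 6 h libraries it stood at 2.84, 2.27 and 1.76 CPM, and that range overlaps the unstimulated one. The log2 fold change was -0.43 ± 0.13 after 1 h (SE; interval -0.71 to -0.15) and -0.37 ± 0.13 after 6 h (interval -0.65 to -0.09). The unadjusted p-values of the edgeR fit were 0.00417 and 0.0121, and neither passed once adjusted over all genes (adjusted p = 0.231 and 0.194). The 6 h value included IFNg_6h replicate 3, which has the lowest Igtp level of the 12 libraries. Without it the log2 fold change was -0.22 (adjusted p = 0.371), and without IFNg_6h replicate 1 or unstimulated replicate 3 it was -0.55 and -0.52 and passed (adjusted p = 0.0368 and 0.0488). With genes kept down to 1 count in any library, Igtp was called lower after 1 h and after 6 h (adjusted p = 0.00791 and 0.0241). Over all alternatives the edgeR, DESeq2 and limma-voom adjusted p ran from 0.00791 to 0.701 after 1 h and from 0.0241 to 0.552 after 6 h.

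Of the 3 members, 0 were called after 1 h, where 0.42% of all genes tested were called, and 0 after 6 h, where 1.59% were called. At an unadjusted edgeR p under 0.05, 1 member (Igtp) passed in each, and DESeq2 and limma-voom called 0 members in each. These comparisons share the unstimulated libraries. Between the 6 h and 1 h exposures, 0 members were called against 0.0979% of all genes, 0 had an unadjusted p under 0.05, and the smallest was 0.301 (Irgm2, log2 fold change 0.15, interval -0.14 to 0.43). DESeq2 and limma-voom also called 0 there.

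The counts behind these low levels were 373 to 544 per library for Irgm1, 107 to 176 for Irgm2 and 94 to 187 for Igtp over the 9 libraries without 24 h exposure. If every read pair gave 2 counts, counting error alone would give coefficients of variation of 7.32% at 373 counts and 14.6% at 94 counts. The spread of Igtp in unstimulated libraries was 17.3% and in 6 h libraries 23.6%. In 24 h libraries the counts were 7551 or more.

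**Figure D2:**
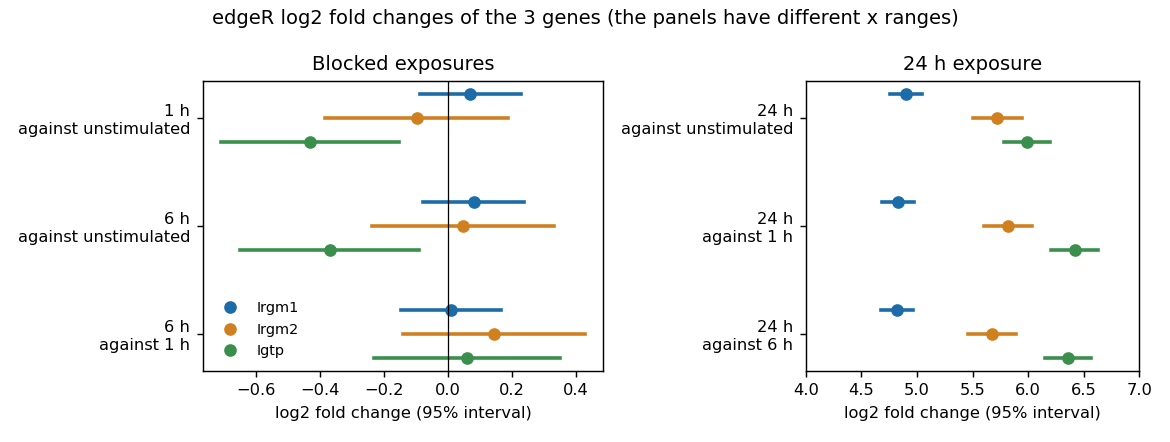
edgeR log2 fold changes (points) with 95% intervals (lines) of the 3 genes, for the blocked exposures on the left and the 24 h exposure on the right, on different x ranges. The intervals of Irgm1 and Irgm2 span 0 in each blocked comparison, the Igtp intervals against unstimulated cells lie below 0 without passing the adjusted threshold, and all 24 h values exceed 4.5.

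Set against the gain seen after 24 h, no more than 0.535% of it was left in any library of the blocked exposures. The gain left is the level above the unstimulated mean, in percent of the difference between the 24 h and unstimulated means, on the CPM scale. For Irgm1 it was 0.181% ± 0.31 after 1 h and 0.210% ± 0.275 after 6 h (SD, n = 3). For Irgm2 it was -0.114% ± 0.504 and 0.0713% ± 0.145, and for Igtp -0.421% ± 0.0622 and -0.372% ± 0.291. Over the 18 values of single libraries the range was -0.658% to 0.535%. Unstimulated libraries were not scored on this scale. For Irgm1 they ran from 7.26 to 8.85 CPM, and the means after 1 h and 6 h, 8.27 and 8.34 CPM, lay within that range. No library was taken when the antibody was added, so the gain made before it is not known.

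The 24 h exposure was also compared with the blocked exposures directly. Against 6 h, the log2 fold changes were 4.82 ± 0.07 for Irgm1, 5.67 ± 0.10 for Irgm2 and 6.36 ± 0.10 for Igtp (SE; edgeR adjusted p = 1.9e-28, 9.74e-22 and 1.03e-22). Against 1 h they were 4.83 ± 0.07, 5.82 ± 0.11 and 6.42 ± 0.10 (adjusted p = 1.64e-28, 6.34e-22 and 7.66e-23). All 3 members were called higher in each, where 8.92% and 10.2% of all genes tested were called higher.

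The members did not keep their proportions. The count of Irgm1 per kb of exon, divided by that of Igtp, was 0.439, 0.447 and 0.417 in the 24 h libraries, against 0.752, 0.816 and 1.29 in unstimulated libraries. In the blocked groups it was 1.34, 1.42 and 1.17 after 1 h, and 1.07, 1.17 and 1.72 after 6 h. Each 24 h library lay below the other 9. The mean log2 ratio was 1.09 lower after 24 h than in unstimulated cells (difference -1.09). An exact permutation test over all 369600 assignments of the 12 libraries to the 4 groups gave p = 0.00364 (0.0109 adjusted over 3 ratios).

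Irgm1 to Irgm2 moved the same way. The ratio was 1.15, 1.09 and 1.06 in the 24 h libraries, against 1.86, 1.91 and 2.04 in unstimulated libraries. It ranged from 1.63 to 2.83 after 1 h and from 1.91 to 2.12 after 6 h, so the 24 h libraries again lay below the other 9. The mean log2 ratio differed from that in unstimulated cells by -0.82. The exact permutation test across the 4 groups gave p = 0.0114 (adjusted 0.017). For Irgm2 to Igtp the ranges overlapped, 0.382 to 0.410 after 24 h against 0.404 to 0.630 in unstimulated libraries (difference in mean log2 ratio -0.27). The ratio was 0.416 to 0.817 after 1 h and 0.503 to 0.898 after 6 h, so the 24 h libraries lay below all 6 blocked libraries. Across the 4 groups the exact permutation test gave p = 0.141. With the 24 h libraries left out, the exact permutation test over the other 9 gave p = 0.2, 0.493 and 0.625 for Irgm1 to Igtp, Irgm2 to Igtp and Irgm1 to Irgm2. For 24 h against unstimulated alone, the two-sided exact permutation p was 0.1 for Irgm1 to Igtp, 0.2 for Irgm2 to Igtp and 0.1 for Irgm1 to Irgm2, and 3 libraries against 3 cannot give a p below 0.1. A ratio within a library does not depend on its depth or scaling.

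**Figure D3:**
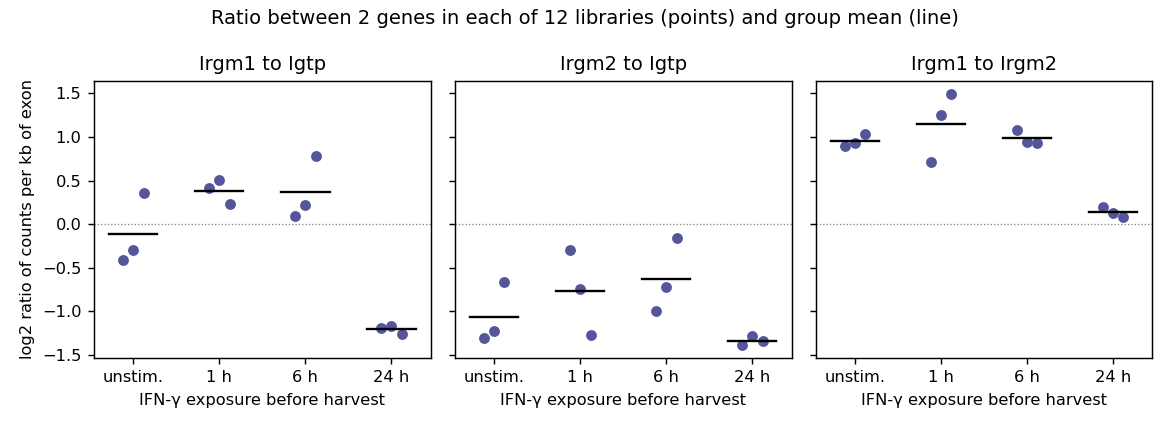
Log2 ratio of counts per kb of exon between pairs of the 3 genes in each library (points; the line is the group mean of 3 libraries). In the Irgm1 to Igtp and Irgm1 to Irgm2 panels the 24 h libraries lie below the other 9, and in the Irgm2 to Igtp panel they overlap the unstimulated libraries.

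Compared per kb of exon, so that genes of unlike length can be ordered, the level of Igtp in 24 h libraries was 93.2 ± 1.91 CPM per kb, that of Irgm1 40.5 ± 0.748 and that of Irgm2 36.9 ± 1.51 (SD, n = 3). The ranges did not overlap, and 97.1%, 91.6% and 90.7% of tested genes were at a lower level. In unstimulated libraries Igtp at 1.47 ± 0.255 and Irgm1 at 1.35 ± 0.148 overlapped, and Irgm2 lay below both at 0.697 ± 0.0421 CPM per kb. In these cells 34.5%, 33.4% and 25.4% of tested genes were lower. The order depends on the length used. The Irgm1 model has 5810 exonic bases because it includes a longer transcript without a coding sequence, while its transcript with the longest coding sequence has 2259 bases. With such transcripts as the length, an alternative chosen after seeing the data, Irgm1 stood first, at 104.1 ± 1.93 CPM per kb in 24 h libraries and 3.48 ± 0.382 in unstimulated libraries. Igtp was unchanged by this choice, and Irgm2 was at 38.6 ± 1.58 in 24 h libraries and 0.729 ± 0.0440 in unstimulated libraries. The shift of the ratios between groups does not depend on length.

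Genes most like each member were ranked by the Euclidean distance over the 3 log2 fold changes against unstimulated cells (1 h, 6 h and 24 h) among 9827 genes that averaged 1 CPM or more over the 12 libraries, leaving out predicted-gene symbols. Nearest to Irgm1 were the guanylate-binding protein gene Gbp3 (distance 0.288), the transcription factor gene Irf1 (0.531), Lgals3bp (0.810), the large inducible GTPase gene Gvin1 (0.825) and Irgm2 (0.840). Nearest to Irgm2 were Igtp (0.597), Irgm1 (0.840), Gbp3 (0.873), the effector Ifi47 (0.877) and Gvin1 (0.901). Nearest to Igtp were Irgm2 (0.597), Irgm1 (1.28), Ifi47 (1.28), Gbp3 (1.37) and Gvin1 (1.49). All 3 fold changes share the unstimulated libraries.

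Genes on either side of the members differed in their response after 24 h. Trim7, which lies on one side of Irgm1, averaged 0.433 ± 0.167 CPM in 24 h cells and 0.292 ± 0.0277 CPM in unstimulated cells (log2 fold change 0.57 ± 0.45, edgeR adjusted p = 0.425). Gm5431, a further IRG family gene on its other side, averaged 5.22 ± 0.904 CPM in 24 h cells and 0.427 ± 0.183 CPM in unstimulated cells (log2 fold change 3.61 ± 0.25, adjusted p = 2.14e-12). Gm12250, which encodes the IRG protein Irgb10 and has no coding sequence in the annotation, lies 10543 bases before Igtp. It averaged 50.2 CPM in 24 h cells and 0.218 CPM in unstimulated cells (log2 fold change 7.83 ± 0.15, adjusted p = 6.39e-26). Mrpl22, a mitochondrial ribosomal protein gene on the far side of Gm12250, averaged 34.6 ± 1.41 CPM in 24 h cells and 29.4 ± 0.648 CPM in unstimulated cells (SD, n = 3; log2 fold change 0.23 ± 0.07, adjusted p = 0.014). Past Irgm2 the next coding gene, 4930438A08Rik, lies 52016 bases away. It had 4 counts over all libraries and was not tested, so no response could be seen on that side.

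The other IRG genes, among them the effectors that IRGM proteins restrain, were mostly higher too. Of 13 other IRG family genes, 11 rose after 24 h and 0 fell, where 10.3% of all genes tested were called higher and 8.35% lower, with a median log2 fold change of 7.83 against -0.003 over all genes tested. The median was also 7.83 with the 4 genes at 0 in unstimulated libraries placed at their lower bound. These 4 (Tgtp1, Gm4841, Gm4951 and F830016B08Rik) passed the filter on low counts through the 24 h libraries alone. A rise was thus built into their being tested, and their calls add no support. Iigp1 averaged 937.5 CPM in 24 h libraries and 0.0113 CPM in unstimulated libraries. Tgtp1 had 16901 counts over the 24 h libraries and 0 over the unstimulated libraries, which is at least 2560-fold higher when the unstimulated group is set to a limit of 6 counts in all. Gm4841 was at least 1750-fold higher by the same limit. The 2 genes that edgeR did not call were Irgc1 and Irgq, named after their values were seen. DESeq2 called 11 of the 13 and limma-voom 12, and 12 had an unadjusted edgeR p under 0.05. Irgc1 averaged 0.320 CPM in 24 h cells and 0.116 CPM in unstimulated cells, and Irgq 31.7 CPM in 24 h cells and 34.1 CPM in unstimulated cells. Reads of the near-identical Tgtp1 and Tgtp2 can be split between them in counting.

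After 6 h, 4 of the 13 were called higher, against 1.17% of all genes tested, with a median log2 fold change of 0.76. That median is the value of Irgc1, which was not called and had 34 counts over the 6 h and 20 over the unstimulated libraries. The 4 genes at 0 counts in unstimulated libraries are included in it. Limma-voom called 1 of the 13 and DESeq2 4, and without IFNg_6h replicate 3 edgeR called 4 higher, among which Irgq took the place of Tgtp2. Iigp1 had 68 counts over the 6 h libraries and 2 over the unstimulated libraries (edgeR adjusted p = 0.0042). Gm12250 rose by 1.18 ± 0.27 (adjusted p = 0.0215) and Tgtp2, which is not called without IFNg_6h replicate 3, by 2.24 ± 0.56 (adjusted p = 0.0452). Ifi47, at 1.69 CPM in unstimulated cells, rose by 0.79 ± 0.14 (adjusted p = 0.00226). After 1 h, 0 of the 13 were called by edgeR, DESeq2 or limma-voom, and 2 had an unadjusted edgeR p under 0.05. Over all genes tested, edgeR called 0.42% after 1 h.

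Guanylate-binding proteins are larger interferon-inducible GTPases that act with IRGs at pathogen vacuoles. Of 11 such genes 9 were tested, and 9 rose after 24 h (against 10.3% of all genes tested, while DESeq2 called 8). Gbp2b, Gbp4, Gbp6 and Gbp10 had no more than 15 counts in any group outside 24 h. They passed the filter through the 24 h libraries alone, so a rise was built into their being tested. The median of the 9 log2 fold changes was 8.05 (8.05 also with the 2 genes at 0 in unstimulated cells at their lower bound). Gbp4 averaged 115.5 CPM in 24 h cells and 0.0134 CPM in unstimulated cells, the lower level resting on 2 counts. Gbp7 rose by 11.54 ± 0.16 and Gbp2 by 11.41 ± 0.09 on the log2 scale (SE). After 6 h 3 of the 9 rose, against 1.17% of all genes tested, Gbp2 by 2.12 ± 0.18, Gbp7 by 1.97 ± 0.49 and Gbp3 by 0.36 ± 0.07, and limma-voom called 1. After 1 h edgeR, DESeq2 and limma-voom called 0, and 1 had an unadjusted edgeR p under 0.05. Over all genes tested, edgeR called 0.42% after 1 h. Gbp8 and Gbp11 did not pass the filter. By group means, the part of the 24 h gain left after 6 h was also small for the called genes of both lists. It was 0.0415% for Iigp1, 0.0662% for Tgtp2, 0.56% for Gm12250 and 1.02% for Ifi47. For Gbp2 it was 0.125%, for Gbp7 0.0947% and for Gbp3 0.969%, where the means of the IRGM genes ran from -0.372% to 0.210%. The difference between these lists and the IRGM genes after 6 h was not tested.

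**Figure D4:**
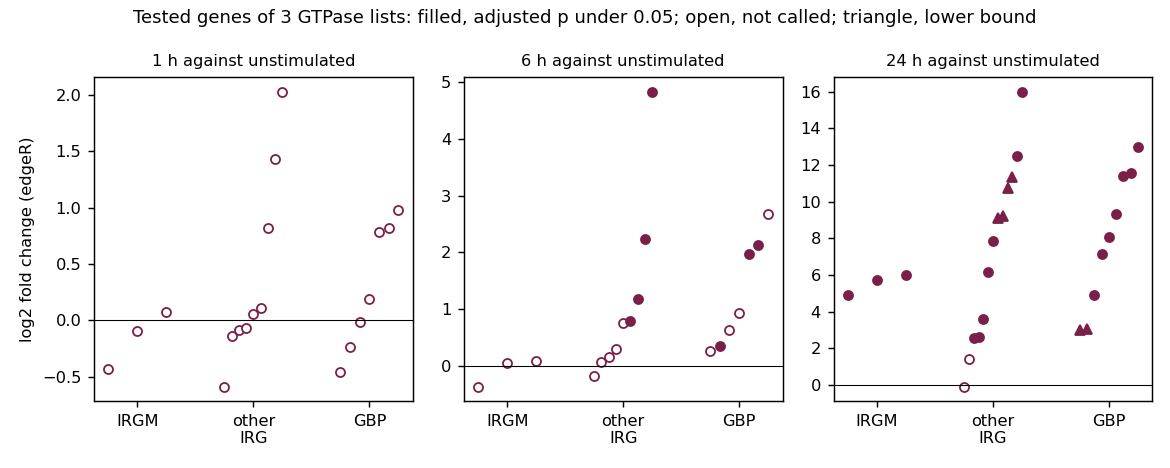
edgeR log2 fold changes against unstimulated cells after 1 h, 6 h and 24 h (panels with different y ranges) for the 3 IRGM genes, other tested IRG genes and tested guanylate-binding protein (GBP) genes. Filled symbols passed an adjusted p under 0.05, triangles are lower bounds for genes at 0 counts in unstimulated libraries, and those genes are left out of the 1 h and 6 h panels. Values of Iigp1 and Gbp4 rest on 2 counts in unstimulated libraries. After 6 h the IRGM points are open and lie between -0.37 and 0.08.

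Some regulators of the IFN-γ response rose after 24 h, while the receptor genes Ifngr1 and Ifngr2 and the kinase genes Jak1 and Jak2 did not pass the test (Jak1 was called lower without IFNg_6h replicate 3). Irf1, a transcription factor known to activate IRG genes, rose by 4.39 ± 0.06 on the log2 scale, and Socs1, a feedback inhibitor of interferon signalling, by 4.53 ± 0.19 (SE; edgeR adjusted p = 1.07e-29 and 3.78e-17). Irf1 averaged 221.1 CPM in 24 h cells and 10.6 CPM in unstimulated cells, and Socs1 8.86 CPM in 24 h cells and 0.382 CPM in unstimulated cells. After 6 h neither passed the edgeR test, with a log2 fold change of 0.19 ± 0.06 for Irf1 and 0.89 ± 0.24 for Socs1 (adjusted p = 0.109 and 0.054). Without IFNg_6h replicate 3, Socs1 was called higher after 6 h. Of the 10 genes of this list, edgeR called 0 after 6 h, against 1.59% of all genes tested. DESeq2 called 1 and limma-voom 0, and 3 had an unadjusted edgeR p under 0.05.

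Mouse cells need LC3 conjugation, a part of the autophagy machinery, to place IRG proteins correctly. Of 14 genes of this machinery 1 rose after 24 h and 0 fell, where 10.3% of all genes tested were called higher and 8.35% lower. Their log2 fold changes ran from -0.20 to 0.21, with a median of 0.006. Atg16l1, part of the conjugating complex, rose by 0.21 ± 0.05 (edgeR adjusted p = 0.00219), with 68.2 CPM in 24 h cells and 59.0 CPM in unstimulated cells. After 1 h and after 6 h edgeR, DESeq2 and limma-voom called 0 of the 14, and 0 had an unadjusted edgeR p under 0.05. Over all genes tested, edgeR called 0.42% after 1 h and 1.59% after 6 h.

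The caspase-11 pathway, which Irgm2 restrains, was represented by 8 genes, of which 6 were tested and 4 rose after 24 h, where 10.3% of all genes tested were called higher. Casp4, which encodes caspase-11, rose by 1.89 ± 0.28 (SE; edgeR adjusted p = 8.83e-06), with 1.66 CPM in 24 h cells and 0.445 CPM in unstimulated cells. Casp1 rose by 1.01 ± 0.07 (adjusted p = 4.43e-12). Pycard, an inflammasome adaptor, rose by 1.33 ± 0.43 (adjusted p = 0.0286), with 0.581 CPM in 24 h cells and 0.230 CPM in unstimulated cells. It had 278 counts over all 12 libraries. Pycard was not called for 24 h against 6 h or against 1 h (edgeR adjusted p = 0.657 and 0.141). After 6 h and after 1 h edgeR, DESeq2 and limma-voom called 0 of the 6. Over all genes tested, edgeR called 1.59% after 6 h and 0.42% after 1 h. At an unadjusted edgeR p under 0.05 there were 4 and 1 of the 6, and the share of all genes at that threshold is not given here. These 4 and 1 were not all rises. Nlrp3, among them in both, was lower, by a log2 fold change of -1.13 ± 0.42 after 6 h and -1.25 ± 0.42 after 1 h. It had 322 counts over all 12 libraries.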

How the data were processed

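Polyadenylated RNA of 12 samples was read as stranded paired-end libraries of 125 bp from 500 ng of RNA with 10 PCR cycles, per the labels' protocols. The authors deposited raw counts per gene. STAR 2.5.2a, featureCounts 1.4.3-p1, Picard and mm10 are named in the submitters' processing notes, while the sources used here do not give the annotation release or strand setting. Of counts from 1 to 20, 69.9% to 73.9% were even, so many read pairs may have been counted as 2, and counts overstate the molecules seen. A halved table was tried as an alternative.

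Groups came from the sample labels. The counts of all 12 samples were fitted together with edgeR 4.0.16 in R 4.3.3 (TMM scaling, filterByExpr, robust quasi-likelihood test, 8 residual degrees of freedom), with Benjamini-Hochberg adjustment over 14299 genes and a call at an adjusted p under 0.05. DESeq2 1.42.0, limma-voom (limma 3.58.1), other filters, scalings, length and GC corrections, fewer libraries and a replicate block were alternatives. Intervals are 95%. Ratios between members were tested by exact permutation. Nothing says that the 3 samples of a group are separate cultures, so the p-values reflect the spread among these samples alone, and that spread may be technical. No library repeated another.

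The members and gene lists were chosen with earlier results of these data known. Named genes are the members, up to 3 called genes per list with the largest fold change, and the 5 nearest genes by distance. Gene models are GENCODE M21, promoters are RefSeq (GRCm38.p6), and 53274 of the 53379 identifiers matched a symbol. Some items of the gene lists are not reported here.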

Additional observations from a re-analysis of the deposited data

Results flagged for a closer look

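The effect of IFN-γ relative to unstimulated cells differed between the 24 h exposure and each blocked exposure for all 3 genes, and each difference is a direct edgeR contrast between the exposures. Between 24 h and 6 h the log2 difference was 4.82 for Irgm1, 5.67 for Irgm2 and 6.36 for Igtp. Between 24 h and 1 h it was 4.83 for Irgm1, 5.82 for Irgm2 and 6.42 for Igtp. The differences between 6 h and 1 h did not pass the test for any of the 3.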

How the results depend on the processing

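No fold change of a member that passed the test reversed or lost its call under any alternative run. Igtp against unstimulated cells was called with genes kept at 1 count in any library, at -0.37 after 6 h (edgeR adjusted p = 0.0241) and -0.43 after 1 h (adjusted p = 0.00791), and the cause was not tested. With each library left out in turn, Igtp ran from -0.55 to -0.22 after 6 h (adjusted p 0.0368 to 0.552) and its gain left after 1 h from -0.580% to -0.318%. The gain left after 1 h and 6 h ran from 0.0031% to 0.397% and from 0.0784% to 0.427% for Irgm1, and from -0.366% to 0.138% and from -0.0095% to 0.138% for Irgm2, whose sign thus changed. For Igtp after 6 h it ran from -0.531% to -0.230%. Leave-one-out exact permutation p ran from 0.000974 to 0.00981 for Irgm1 to Igtp, from 0.000325 to 0.0171 for Irgm1 to Irgm2 and from 0.0856 to 0.286 for Irgm2 to Igtp. Same-numbered samples did not deviate together (correlations -0.066 to 0.062, 0 of 18 over 0.1; 4 of 12 libraries correlated best with their own number). With the replicate block the 24 h changes were 4.90 for Irgm1, 5.72 for Irgm2 and 5.99 for Igtp, and no call on a member changed. Over all genes, 60 were called after 1 h against unstimulated, but 174 with the 1-count filter, 128 by DESeq2, 104 in a fit of 6 libraries and 15 to 114 with a library left out. After 6 h the 228 became 413, 374, 95 and 89 to 531. Between 6 h and 1 h the 14 became 36, 34, 9 and 8 to 24, with 22 after GC correction and 9 by limma-voom. The 94 to 544 counts per gene and library outside the 24 h group limit what small changes could be seen.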
